A study of Danio rerio with 6 samples.

Results

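The genes described here are the 100 genes of shield-stage zebrafish embryos whose level in every library of active Mcpip1 exceeded the level in every library of inactive Mcpip1 by the widest margin. They were taken from 12600 genes with a mean raw count of at least 50 over the 6 libraries, out of 32057 genes in the count files. Each gene was given a score, the log2 ratio of its lowest Mcpip1 WT level to its highest Mcpip1 DN level, both in CPM (counts per 1000000 gene-assigned reads of the library) with 1 CPM added, and the 100 highest scores were kept. The injected gene itself, zc3h12a, was left out. The genes were therefore chosen by the comparison of Mcpip1 WT with Mcpip1 DN, so their values in that comparison are a description, and no test of it is offered as support.

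Mcpip1 WT embryos had received mRNA of zebrafish zc3h12a, and Mcpip1 DN embryos the same mRNA with the D112N change in the nuclease domain, which makes the enzyme inactive. Both were AB/TL embryos injected into the yolk at the 1-cell stage with a message that joins Mcpip1 to the fluorescent protein mTurquoise through a self-cleaving peptide. Poly(A) RNA of about 10 pooled embryos per library was sequenced at 6 hours post-fertilization (hpf) on the Ion Proton, in 3 libraries for each form. Both groups thus carried injected zc3h12a, no uninjected embryos were among the samples used, and reads of the injected and the embryo's own zc3h12a were not separated.

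Mcpip1 is an endoribonuclease with a PIN domain that cuts stem-loops in mRNAs and shortens their life. In mammals its targets include messages of inflammatory cytokines. At the shield stage the embryo has replaced much of its maternal RNA with its own transcripts, and gastrulation has begun. Several of the genes below serve the endoplasmic reticulum (ER), where membrane and secreted proteins are folded by chaperones and disulfide isomerases and receive N-linked sugars, while others serve translation initiation through eIF2, the factor that brings the initiator tRNA to the ribosome.

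The Mcpip1 WT libraries held 22581287 to 24662219 counts on genes and the Mcpip1 DN libraries 17686041 to 23944732. zc3h12a was at 7435, 883 and 1202 CPM in Mcpip1 WT replicates 1, 2 and 3, and at 1498, 727 and 397 CPM in Mcpip1 DN replicates 1, 2 and 3, so its total level, injected and endogenous, overlapped between the groups. The gastrula gene tbxta (brachyury) was at 157 to 556 CPM in Mcpip1 WT and 254 to 548 CPM in Mcpip1 DN, and the organizer gene chrd (chordin) at 226 to 469 CPM in Mcpip1 WT and 205 to 443 CPM in Mcpip1 DN. These ranges overlapped, with both genes expressed in every library. Across genes, libraries of different groups correlated as closely as libraries of the same group (mean Pearson r of log2 values 0.910 between and 0.904 within groups). In pooled embryos, fewer cells of a type cannot be told apart from less RNA per cell.

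The margins were narrow. The score was 0.73 for the first gene, 0.35 at the median and 0.24 for the last. The lowest Mcpip1 WT library stood above the highest Mcpip1 DN library by a factor of 1.18 to 1.95 (median 1.30), more than 1.5 for 16 genes and more than 2 for 0. The fold of the group means was 1.25 to 3.26 (median 1.82), and it exceeded 2 for 36 genes and lay under 1.5 for 17. Of all 12600 eligible genes, 4.10% had every Mcpip1 WT library above every Mcpip1 DN library and 4.24% had the reverse, so the genes higher in every Mcpip1 WT pool were about as frequent as those lower in every one.

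The genes at the edge of the choice differed little from those just outside it. The last 3 taken were nipsnap2, jpt1b and TRAPPC1, and the first 3 not taken were PSPH, CAP1 and rhocb, all with a score of 0.24. TRAPPC1, a subunit of the tethering complexes of the Golgi, had 3.14, 3.69 and 4.58 CPM in Mcpip1 WT and 1.58, 2.17 and 2.51 CPM in Mcpip1 DN. PSPH, the last enzyme of serine synthesis, had 46.1, 39.0 and 44.9 CPM in Mcpip1 WT and 26.9, 32.9 and 24.7 CPM in Mcpip1 DN. CAP1 had 19.6, 18.4 and 33.9 CPM in Mcpip1 WT and 13.2, 13.4 and 15.5 CPM in Mcpip1 DN. In all 3 the groups were separate, with a gap of 1.25-fold in TRAPPC1 and 1.19-fold in PSPH and CAP1 between the nearest libraries.

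**Figure D1:**
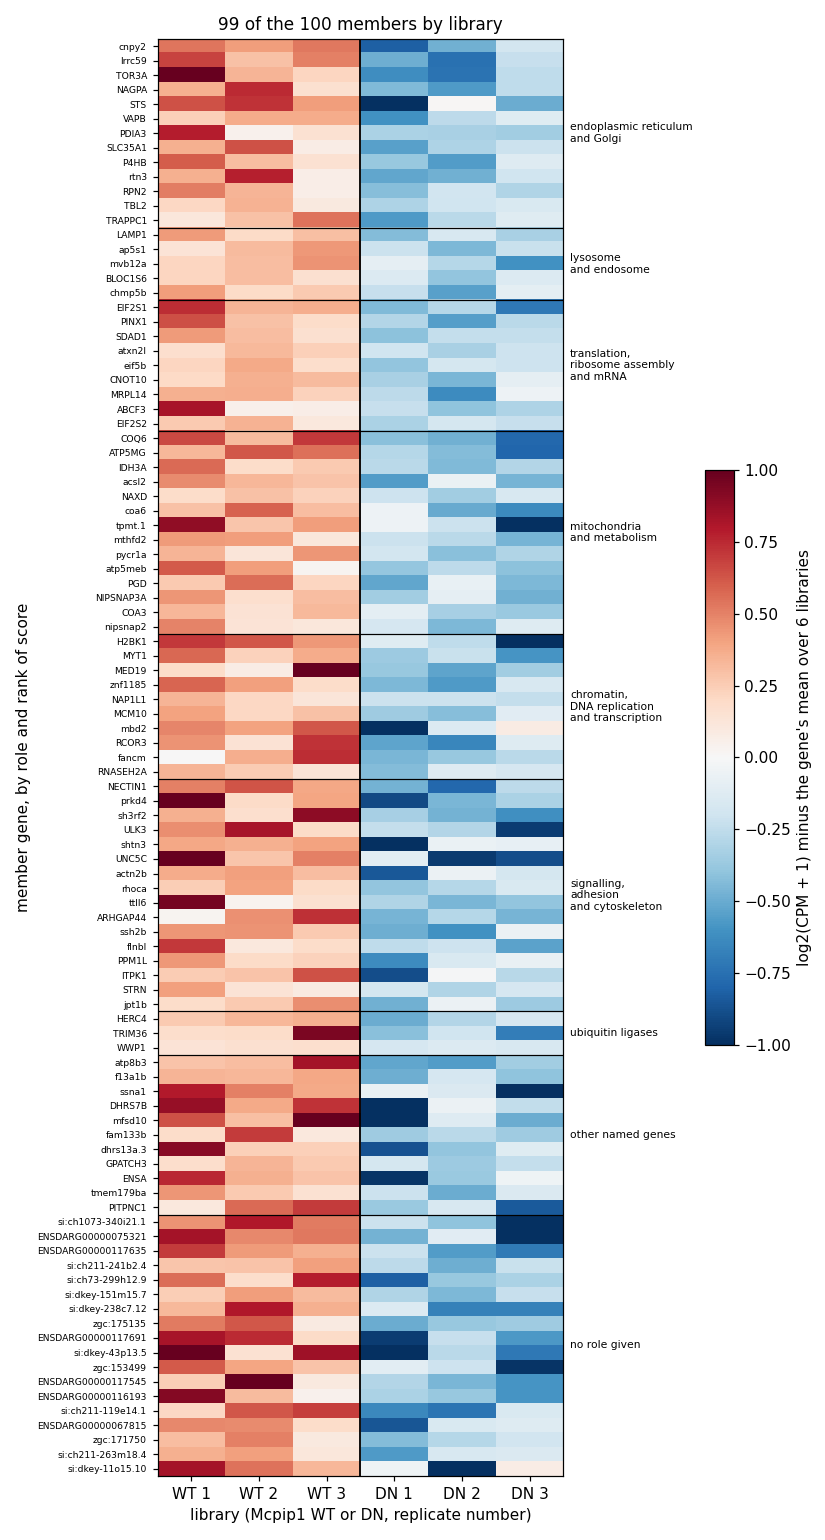
Level of 99 of the 100 genes (rows, by role and then by score) in the 3 Mcpip1 WT and 3 Mcpip1 DN libraries (columns), as log2(CPM + 1) minus the gene's mean over the 6 libraries, with colours saturating 1 log2 unit from the mean. All rows are higher on the left because the genes were chosen for it, and the shade varies among the libraries of a group. Over all 100 genes, Mcpip1 WT replicate 1 was the highest Mcpip1 WT library in CPM for 46, against 22.5% of eligible genes.

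Of the 100 genes, 82 were sorted into groups from their names after the choice had been made. For 11 of them the group is a remainder of named genes without a shared role. Signalling, adhesion and the cytoskeleton held 17, mitochondria and metabolism 14, the ER and Golgi 13, chromatin, DNA replication and transcription 10, translation, ribosome assembly and mRNA 9, the lysosome and endosome 5, ubiquitin ligases 3, and other named genes 11. A further 18 had no role given, 12 of them known by a clone or project name and 6 without a symbol. Genes outside the 100 were not sorted into roles, so these counts have no share over eligible genes beside them, and no role is called frequent. Genes were named in the text by a fixed rule based on score, CPM, spread and list, and every other gene was named after its values had been seen.

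The 13 genes of the ER and Golgi had a fold of means of 1.37 to 2.80 (median 1.78). cnpy2, which encodes an ER protein of the Canopy family, led them by score. It was at 11.9, 10.9 and 11.8 CPM in Mcpip1 WT and at 4.07, 5.39 and 6.84 CPM in Mcpip1 DN, a fold of 2.13. The 3 Mcpip1 WT libraries were close to each other (SD 0.554 CPM) and the Mcpip1 DN libraries were more spread (SD 1.38 CPM). lrrc59, whose product is an ER membrane protein that binds ribosomes, was at 161, 123 and 143 CPM in Mcpip1 WT and 71.2, 59.4 and 85.5 CPM in Mcpip1 DN. Its means of 142 ± 19.1 CPM in Mcpip1 WT and 72.0 ± 13.1 CPM in Mcpip1 DN (SD, n = 3 each) gave a fold of 1.98.

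Of the protein disulfide isomerases, P4HB and PDIA3 were among the 100 genes, and their groups are separate by the choice. Outside the 100, the groups overlapped in PDIA4, PDIA5, PDIA6 and pdia7, with folds of means of 1.40, 1.40, 0.75 and 1.04. P4HB, which forms and rearranges disulfide bonds and is also a subunit of collagen prolyl hydroxylase, had 1037, 843 and 758 CPM in Mcpip1 WT and 524, 462 and 623 CPM in Mcpip1 DN. The closest pair of libraries, Mcpip1 WT replicate 3 and Mcpip1 DN replicate 3, were 1.22-fold apart, against a fold of 1.64 between the means. PDIA3, the isomerase that works on glycoproteins with calnexin and calreticulin, had 462, 276 and 298 CPM in Mcpip1 WT and 215, 214 and 210 CPM in Mcpip1 DN. Here the Mcpip1 DN libraries were nearly equal and Mcpip1 WT replicate 1 stood above the other two. RPN2, a subunit of the oligosaccharyltransferase that puts N-linked sugars onto proteins, had 76.0, 67.1 and 55.4 CPM in Mcpip1 WT and 39.1, 46.2 and 42.8 CPM in Mcpip1 DN (fold of means 1.55).

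The remaining ER and Golgi genes had other tasks. VAPB, a tether between the ER and other organelles, was at 42.0, 46.1 and 46.0 CPM in Mcpip1 WT and 23.0, 29.3 and 32.5 CPM in Mcpip1 DN. rtn3, which encodes a reticulon that shapes ER tubules, was at 91.4, 123 and 74.5 CPM in Mcpip1 WT and 49.3, 50.8 and 61.8 CPM in Mcpip1 DN. In rtn3 Mcpip1 WT replicate 2 was the highest library and in VAPB replicates 2 and 3 were almost level. SLC35A1, the Golgi carrier of CMP-sialic acid, had 56.8, 69.2 and 46.4 CPM in Mcpip1 WT and 30.0, 35.3 and 37.8 CPM in Mcpip1 DN. TOR3A (a torsin ATPase), STS (steroid sulfatase), NAGPA (which uncovers the mannose 6-phosphate signal), TBL2 and TRAPPC1 completed the group.

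**Figure D2:**
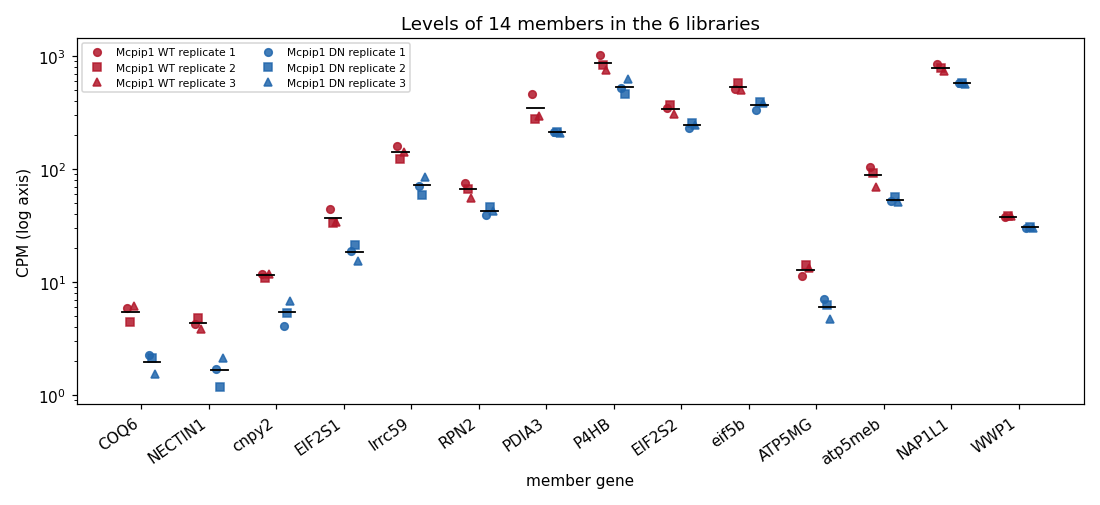
CPM (log axis) of 14 of the 100 genes in each library, Mcpip1 WT to the left of Mcpip1 DN, with a marker shape for each replicate number and a bar at the group mean; the genes were picked from the text to cover the roles described. The groups of each gene are separate by the choice of genes, COQ6 by 1.95-fold and WWP1 by 1.22-fold between the nearest libraries, and CPM is not corrected for gene length, so heights are not compared between genes.

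Of the 9 genes of translation, ribosome assembly and mRNA, 3 act at the step that starts protein synthesis. EIF2S1 (ENSDARG00000052178), the alpha subunit of eIF2 whose phosphorylation slows initiation under stress, was at 44.1, 33.1 and 33.8 CPM in Mcpip1 WT and at 18.9, 21.1 and 15.4 CPM in Mcpip1 DN, a fold of 2.0. EIF2S2, the beta subunit, was at 346, 368 and 310 CPM in Mcpip1 WT and 232, 256 and 245 CPM in Mcpip1 DN, a fold of 1.40. eif5b, which joins the ribosomal subunits after eIF2 has left, was at 512, 576 and 501 CPM in Mcpip1 WT and 337, 391 and 383 CPM in Mcpip1 DN, a fold of 1.43. In all 3 genes the spread within a group was smaller than the gap between the group means.

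A second gene that the name table also calls EIF2S1 (ENSDARG00000005827) was not among the 100. Its level was 463, 579 and 527 CPM in Mcpip1 WT and 468, 394 and 440 CPM in Mcpip1 DN. Mcpip1 WT replicate 1 lay below Mcpip1 DN replicate 1, so the groups overlapped, and reads that fit both copies make the split between them uncertain.

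The other genes of this group included atxn2l, the Ataxin-2-like RNA-binding protein, with 569, 634 and 598 CPM in Mcpip1 WT and 443, 406 and 438 CPM in Mcpip1 DN (fold 1.40). PINX1, which binds telomerase and is found in the nucleolus, had 471, 370 and 341 CPM in Mcpip1 WT and 245, 205 and 249 CPM in Mcpip1 DN (fold 1.69). SDAD1, a factor of the large ribosomal subunit, had 232, 214 and 193 CPM in Mcpip1 WT and 129, 147 and 146 CPM in Mcpip1 DN. In SDAD1 the lowest Mcpip1 WT library was 1.31-fold above the highest Mcpip1 DN library. CNOT10, a subunit of the CCR4-NOT deadenylase that shortens poly(A) tails, had 59.2, 66.1 and 64.3 CPM in Mcpip1 WT and 41.0, 37.3 and 48.2 CPM in Mcpip1 DN. ABCF3 and MRPL14, a protein of the mitochondrial ribosome, completed the group, whose fold of means was 1.40 to 2.0 (median 1.51).

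The mitochondrial and metabolic genes had a fold of means of 1.40 to 2.77 (median 1.62, 14 genes). COQ6, an enzyme of coenzyme Q synthesis, had the highest score of all, with 5.89, 4.42 and 6.10 CPM in Mcpip1 WT and 2.26, 2.13 and 1.53 CPM in Mcpip1 DN. Its means were 5.47 ± 0.916 CPM in Mcpip1 WT and 1.97 ± 0.393 CPM in Mcpip1 DN (SD, n = 3 each), and its counts ran from 31 to 140 reads per library. ATP5MG, a membrane subunit of ATP synthase, had 11.3, 14.1 and 13.3 CPM in Mcpip1 WT and 7.07, 6.26 and 4.67 CPM in Mcpip1 DN. A further subunit, atp5meb, had 105, 91.8 and 69.6 CPM in Mcpip1 WT and 52.1, 56.7 and 51.2 CPM in Mcpip1 DN. The highest Mcpip1 WT library was replicate 2 for ATP5MG and replicate 1 for atp5meb, so the subunits did not share an order of libraries.

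Assembly of cytochrome c oxidase was represented by COA3, with 93.9, 82.2 and 93.4 CPM in Mcpip1 WT and 69.3, 58.7 and 57.2 CPM in Mcpip1 DN, and by coa6, with 3.99, 5.15 and 4.05 CPM in Mcpip1 WT and 2.94, 1.88 and 1.62 CPM in Mcpip1 DN. IDH3A, a subunit of the isocitrate dehydrogenase of the citric acid cycle, had 54.9, 41.9 and 44.2 CPM in Mcpip1 WT and 30.4, 26.8 and 29.8 CPM in Mcpip1 DN. PGD, of the pentose phosphate pathway, had 157, 193 and 152 CPM in Mcpip1 WT and 91.1, 124 and 95.6 CPM in Mcpip1 DN. Its groups were 1.22-fold apart at their nearest libraries. The others were mthfd2 of mitochondrial folate metabolism, pycr1a of proline synthesis, acsl2, NAXD (a repair enzyme of damaged NADH), tpmt.1, NIPSNAP3A and nipsnap2, which had 72.2, 56.1 and 55.2 CPM in Mcpip1 WT and 45.2, 37.1 and 46.5 CPM in Mcpip1 DN.

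Among the 10 genes of chromatin, DNA replication and transcription, NAP1L1, a histone chaperone, had 853, 780 and 736 CPM in Mcpip1 WT and 583, 582 and 571 CPM in Mcpip1 DN, a fold of 1.36. MCM10, which helps to start DNA replication, had 109, 95.5 and 101 CPM in Mcpip1 WT and 64.3, 61.1 and 76.1 CPM in Mcpip1 DN, a fold of 1.52. RNASEH2A, the catalytic subunit of RNase H2, had 99.9, 93.8 and 86.5 CPM in Mcpip1 WT and 58.1, 71.9 and 70.0 CPM in Mcpip1 DN. Low genes of this group had larger folds on few reads. H2BK1, a histone H2B gene, had 5.09, 4.74 and 4.05 CPM in Mcpip1 WT and 2.43, 2.13 and 0.443 CPM in Mcpip1 DN, which is 9 to 117 reads per library, and histone genes are close copies whose reads can be split. MED19, a Mediator subunit, had 3.23, 2.92 and 6.41 CPM in Mcpip1 WT and 1.87, 1.59 and 1.92 CPM in Mcpip1 DN, with Mcpip1 WT replicate 3 far above the other 2. The others were MYT1, znf1185, mbd2 (a reader of methylated DNA), RCOR3 and fancm.

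The 17 genes of signalling, adhesion and the cytoskeleton had a fold of means of 1.35 to 2.71 (median 1.89). NECTIN1, a cell adhesion molecule of adherens junctions, was at 4.30, 4.78 and 3.88 CPM in Mcpip1 WT and at 1.70, 1.17 and 2.12 CPM in Mcpip1 DN. prkd4, of the protein kinase D family, was at 11.3, 5.6 and 6.63 CPM in Mcpip1 WT and at 2.09, 3.22 and 3.64 CPM in Mcpip1 DN. Mcpip1 WT replicate 1 was 1.87 times replicate 2 in prkd4 (both with 1 CPM added), whereas NECTIN1 was even among the Mcpip1 WT libraries (1.19 times). sh3rf2 was at 5.0, 4.26 and 7.72 CPM in Mcpip1 WT and 2.71, 2.38 and 2.07 CPM in Mcpip1 DN, with Mcpip1 WT replicate 3 the highest. jpt1b was at 369, 391 and 450 CPM in Mcpip1 WT and 233, 312 and 254 CPM in Mcpip1 DN. UNC5C, a netrin receptor, was at 22.2, 11.5 and 13.6 CPM in Mcpip1 WT and 8.59, 4.30 and 4.58 CPM in Mcpip1 DN.

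Genes of the actin and microtubule cytoskeleton in this group included actn2b (an alpha-actinin), flnbl (a filamin), ssh2b (a phosphatase of the slingshot family, which act on cofilin), ttll6 (a tubulin ligase that adds glutamates) and rhoca. actn2b was at 5.14, 5.31 and 4.88 CPM in Mcpip1 WT and 1.64, 3.55 and 3.20 CPM in Mcpip1 DN. ttll6 was at 9.08, 4.34 and 4.80 CPM in Mcpip1 WT and 3.22, 2.80 and 2.95 CPM in Mcpip1 DN. The Mcpip1 WT libraries were even in actn2b, while Mcpip1 WT replicate 1 stood out in ttll6. rhoca, a small GTPase, was at 49.9, 56.0 and 48.0 CPM in Mcpip1 WT and 31.7, 34.2 and 37.6 CPM in Mcpip1 DN. Its paralog rhocb, just outside the choice, was at 89.1, 92.0 and 94.4 CPM in Mcpip1 WT and 75.4, 73.5 and 75.1 CPM in Mcpip1 DN. In CPM both copies had separate groups, with fold changes of 1.49 and 1.23 between the means, but close copies can share reads, so their split is uncertain. Scaling factors from TMM, the trimmed mean of M-values, were 1.17 for Mcpip1 WT replicate 3 and 0.91 for Mcpip1 DN replicate 1. Divided by these factors, rhocb was lower in Mcpip1 WT replicate 3 than in Mcpip1 DN replicate 1, so its groups overlapped. With TMM the groups of rhoca stayed separate, by 1.18-fold. shtn3 was at 4.61, 4.46 and 4.66 CPM in Mcpip1 WT and 1.13, 3.09 and 3.05 CPM in Mcpip1 DN, with Mcpip1 DN replicate 1 the low library. The group also held ULK3, ARHGAP44, PPM1L, ITPK1 and STRN.

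The lysosome and endosome held LAMP1, ap5s1, mvb12a, BLOC1S6 and chmp5b, with a fold of means of 1.40 to 1.72. LAMP1, a main protein of the lysosomal membrane, had 65.0 to 76.4 CPM in Mcpip1 WT and 41.7 to 50.8 CPM in Mcpip1 DN. chmp5b, of the ESCRT-III machinery that sorts cargo into endosomes, had 96.6, 82.6 and 86.7 CPM in Mcpip1 WT and 61.3, 49.2 and 67.3 CPM in Mcpip1 DN. Of the ubiquitin ligases, HERC4 had 22.1, 23.2 and 23.6 CPM in Mcpip1 WT and 12.6, 14.7 and 16.1 CPM in Mcpip1 DN. TRIM36 had 43.8, 44.1 and 75.0 CPM in Mcpip1 WT and 28.6, 33.6 and 23.5 CPM in Mcpip1 DN. WWP1 had 37.5, 38.2 and 38.3 CPM in Mcpip1 WT and 30.2, 30.9 and 30.4 CPM in Mcpip1 DN, the smallest fold of means among the 100 genes (1.25) and the smallest spread within Mcpip1 WT (highest over lowest 1.02).

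Among the 11 other named genes, f13a1b, a coagulation factor XIII A gene, had 45.7, 45.3 and 47.1 CPM in Mcpip1 WT and 25.2, 31.7 and 26.8 CPM in Mcpip1 DN, so it too was even across Mcpip1 WT. atp8b3, a phospholipid flippase gene, had 6.95, 7.10 and 10.6 CPM in Mcpip1 WT and 3.56, 3.42 and 4.13 CPM in Mcpip1 DN. DHRS7B had the largest fold of means, 3.26, with 4.78, 3.12 and 4.23 CPM in Mcpip1 WT and 0, 2.05 and 1.67 CPM in Mcpip1 DN. That fold rested on 0 counts in Mcpip1 DN replicate 1 and at most 108 in any library. The rest were ssna1, mfsd10, fam133b, dhrs13a.3, GPATCH3, ENSA, tmem179ba and PITPNC1.

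The 18 genes with no role given had a fold of means of 1.53 to 2.95 (median 2.05). si:ch1073-340i21.1 had the second highest score, with 7.84, 10.3 and 8.28 CPM in Mcpip1 WT and 4.58, 3.88 and 1.92 CPM in Mcpip1 DN. ENSDARG00000075321 had 6.78, 5.11 and 5.32 CPM in Mcpip1 WT and 2.15, 3.05 and 0.836 CPM in Mcpip1 DN. ENSDARG00000117635 had 6.20, 4.95 and 4.66 CPM in Mcpip1 WT and 2.83, 2.0 and 1.72 CPM in Mcpip1 DN. Mcpip1 DN replicate 3 was the lowest library in all 3. si:dkey-43p13.5 had 22.1, 10.9 and 18.4 CPM in Mcpip1 WT and 3.96, 7.89 and 5.56 CPM in Mcpip1 DN, the widest spread within Mcpip1 WT among the 100 genes (highest over lowest 1.94). ENSDARG00000117545 had 10.1, 17.8 and 9.07 CPM in Mcpip1 WT and 6.67, 5.85 and 5.26 CPM in Mcpip1 DN.

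Of the 81 genes found by name in the RefSeq gene order of assembly GRCz12tu, no chromosome held more than 6, and they fell on 25 chromosomes. There were 2 pairs within 5 genes of each other, a number that was not compared with other sets of genes. One was si:ch73-299h12.9 and si:ch211-241b2.4, 2 genes apart. In it si:ch73-299h12.9 had 3.81, 2.68 and 4.62 CPM in Mcpip1 WT and 0.848, 1.5 and 1.62 CPM in Mcpip1 DN, and si:ch211-241b2.4 had 3.32, 3.37 and 3.75 CPM in Mcpip1 WT and 1.98, 1.55 and 2.07 CPM in Mcpip1 DN. The other pair was zgc:153499 and NAXD, 5 genes apart. In it zgc:153499 had 14.8, 12.6 and 11.6 CPM in Mcpip1 WT and 8.59, 7.93 and 4.23 CPM in Mcpip1 DN, and NAXD had 49.2, 53.1 and 50.8 CPM in Mcpip1 WT and 37.3, 33.7 and 38.5 CPM in Mcpip1 DN. Mcpip1 WT replicate 1 was the highest library of zgc:153499 and replicate 2 that of NAXD.

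The choice favoured genes that varied little among the Mcpip1 WT libraries. The highest over the lowest Mcpip1 WT library, both with 1 CPM added, was 1.02 to 1.94 among the 100 genes (median 1.27), against a median of 1.78 over all eligible genes. It was over 2 for 0 of the 100 and for 40.2% of eligible genes. Low genes were common, as 45 of the 100 had a mean under 10 CPM, against 30.9% of eligible genes. The mean level over the 6 libraries ran from 2.51 to 708 CPM (median 11.9), and was 22.4 CPM at the median of all eligible genes.

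The libraries did not contribute alike. Mcpip1 WT replicate 1 was the highest Mcpip1 WT library for 46 of the 100 genes, against 22.5% of eligible genes, replicate 2 for 30 (22.1%) and replicate 3 for 24 (55.4%). This order depended on the scaling of the libraries. With effective library sizes from TMM, the trimmed mean of M-values, Mcpip1 WT replicate 1 was highest for 40 of the 100 genes. Mcpip1 WT replicate 2 was highest for 52 and replicate 3 for 8. The shares of eligible genes under TMM were 27.93%, 35.02% and 37.06% for replicates 1, 2 and 3. Mcpip1 WT replicate 3 was the lowest Mcpip1 WT library for 81 of the 100, against 35.13% of eligible genes. Under TMM the groups stayed separate for 92 of the 100 genes and under DESeq2 size factors for 86, as follows from a choice made for this separation. Of all eligible genes, 3.72% had every Mcpip1 WT library above every Mcpip1 DN library under TMM and 3.62% under DESeq2 size factors, and 4.25% and 4.18% had the reverse. The 8 that overlapped under TMM included NAP1L1, mthfd2, BLOC1S6, ABCF3, WWP1, STRN and nipsnap2.

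In edgeR's quasi-likelihood test over 16126 genes, all 100 genes had a positive log2 fold change of Mcpip1 WT over Mcpip1 DN, from 0.33 to 1.75 (median 0.89, against 0.01 over all genes tested). At an unadjusted p under 0.05 with a fold above 1.5, 45 of the 100 were called, where 0.874% of all genes tested were called higher. Since the genes were selected on this contrast, nothing is read from that count. At a Benjamini-Hochberg adjusted p under 0.05, edgeR called 0 of the 100 and 0.000% of all genes higher in Mcpip1 WT. Of the genes higher in Mcpip1 WT, 145 had an unadjusted edgeR p under 0.05, 45 of them among the 100. DESeq2 called 0 of the 100 and 1 gene in all at that adjusted level. The smallest adjusted p among the 100 in edgeR was 1.00. The 45 became 11 when Mcpip1 DN replicate 3 was left out, 13 without Mcpip1 WT replicate 1, 15 without Mcpip1 DN replicate 2 and 16 without Mcpip1 WT replicate 2. It became 35 without Mcpip1 DN replicate 1 and 52 without Mcpip1 WT replicate 3. Of all genes tested, 141 were called higher with every library kept. In the same order of left-out libraries, that number was 146, 69, 205, 203, 225 and 291.

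A reading that the choice did not use was obtained by choosing 100 genes from 4 libraries by the same rule and reading them in the other Mcpip1 WT and Mcpip1 DN library. These sets shared 6 to 32 genes with the 100 described here. Over the 9 such pairs, 18 to 66 of the 100 chosen genes were higher in the held-out Mcpip1 WT library, a mean of 44.3, while a mean of 50.1% of all eligible genes were. The chosen genes exceeded all eligible genes in 4 pairs and fell below them in 5. The balance turned with the setting, as they exceeded them in 5 of 9 pairs with a pseudocount of 5 CPM or a minimum mean count of 200, and in 3 with a pseudocount of 0.5 CPM or a minimum of 20. With Mcpip1 WT replicate 3 and Mcpip1 DN replicate 3 held out, 66 of 100 were higher, against 55.9% of all eligible genes. With Mcpip1 WT replicate 2 and Mcpip1 DN replicate 3 held out, 18 of 100 were higher, against 31.8%. The 9 pairs share libraries and are not independent of each other.

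**Figure D3:**
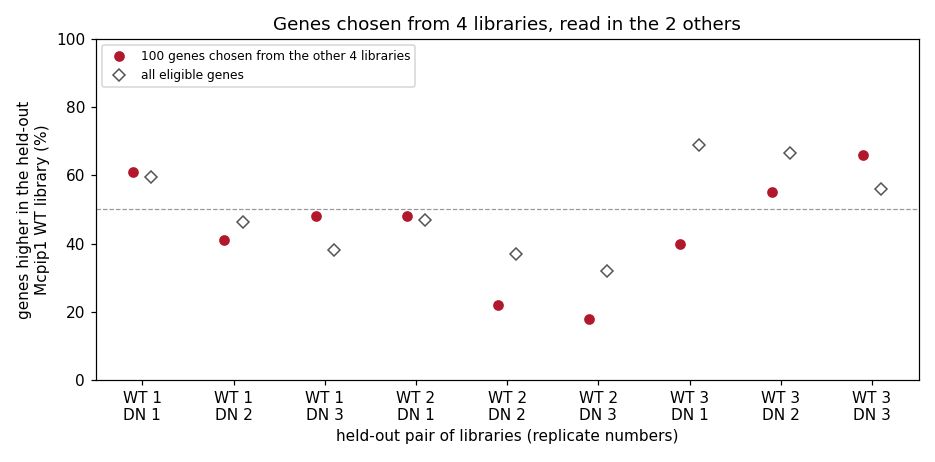
Share of genes higher in a held-out Mcpip1 WT library than in a held-out Mcpip1 DN library, for the 9 pairs of held-out libraries. Filled circles are the 100 genes chosen from the other 4 libraries (18 to 66 of 100), open diamonds are all eligible genes, and the dashed line marks equal numbers higher and lower; circles lie above diamonds in 4 pairs and below in 5.

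The list of genes changed with the way it was made. A pseudocount of 0.5 CPM kept 98 of the 100 and one of 5 CPM kept 83. A minimum mean count of 20 kept 67 and one of 200 kept 59. TMM scaling kept 45, DESeq2 size factors kept 38 and ranking by the difference of mean log2 CPM kept 27. Leaving out Mcpip1 WT replicate 2 kept 16, and leaving out any other single library kept 33 to 59.

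**Figure D4:**
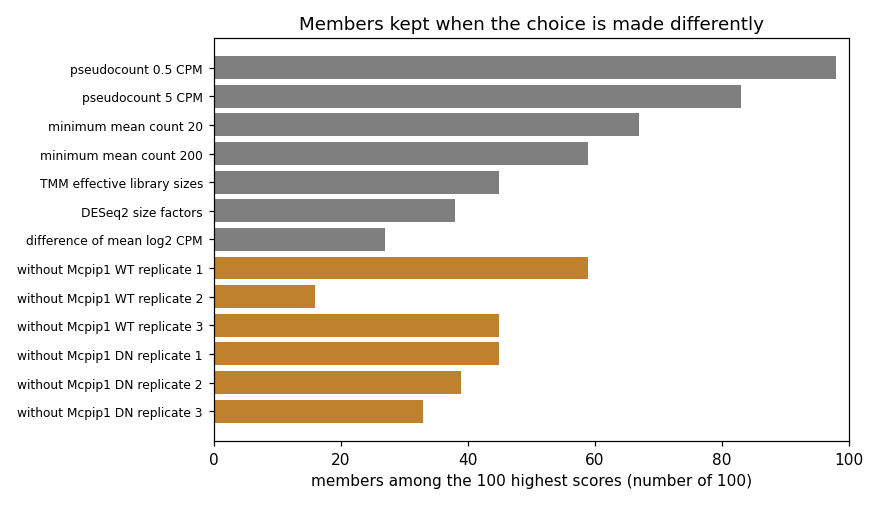
Number of the 100 genes that were again among the 100 highest scores when the scoring (grey bars) or the libraries (brown bars, 1 library left out) were changed. The number was highest with a pseudocount of 0.5 CPM (98) and lowest without Mcpip1 WT replicate 2 (16).

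The pathways around these genes were read in the edgeR fit from gene lists, some of which hold genes among the 100. As those were chosen on this contrast, each such list is also given without them, which takes away genes that were picked for being high. For comparison, 50.8% of all genes tested had a log2 fold change above 0. Of 41 ER chaperones and folding enzymes tested, 34 had a log2 fold change above 0 (median 0.27), and 3 passed p under 0.05 and 1.5-fold upward and 0 downward. P4HB and PDIA3 were among the 100, and the third was calr3a, a calreticulin gene. Without P4HB and PDIA3, 32 of 39 were above 0 (median 0.24) and 1 passed. calr3a, at rank 173 of the score, had 322, 174 and 240 CPM in Mcpip1 WT and 155, 142 and 143 CPM in Mcpip1 DN. HSPA5, the ER chaperone BiP, had 786, 530 and 896 CPM in Mcpip1 WT and 475, 455 and 611 CPM in Mcpip1 DN. In HSPA5 the groups overlapped, since Mcpip1 DN replicate 3 lay above Mcpip1 WT replicate 2. The summed level of the list without P4HB and PDIA3 was 3594 to 5320 CPM in Mcpip1 WT and 3299 to 4150 CPM in Mcpip1 DN, with overlap. The count of 3 in the whole list became 10, in either direction, without Mcpip1 WT replicate 2 and 0 without Mcpip1 WT replicate 1. Calls over all genes tested moved the same way. They went from 141 higher and 204 lower to 203 and 512 without Mcpip1 WT replicate 2, and to 69 and 75 without Mcpip1 WT replicate 1.

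Of 41 genes of ER translocation and N-glycosylation, 2 passed upward and 0 downward, and both, RPN2 and lrrc59, were among the 100. Of the 39 others, 0 passed, and 27 were above 0 (median 0.15). Their summed level was 5099.3 to 5740.5 CPM in Mcpip1 WT and 4864.5 to 4976.3 CPM in Mcpip1 DN, with no overlap when scaled by total gene counts. The TMM factors were 1.17 for Mcpip1 WT replicate 3 and 0.91 for Mcpip1 DN replicate 1. Divided by these factors, the sum was lower in Mcpip1 WT replicate 3 than in Mcpip1 DN replicate 1, so the groups overlapped. Of the 37 eligible among the 39 others, 6 had every Mcpip1 WT library above every Mcpip1 DN library and 3 had the reverse. These counts are in CPM from total gene counts and were not made under TMM. The shares over all eligible genes were 4.10% and 4.24%. RPN1, the partner of RPN2 in the oligosaccharyltransferase, had 519, 510 and 495 CPM in Mcpip1 WT and 406, 427 and 411 CPM in Mcpip1 DN, separate groups in CPM at rank 123. Divided by the TMM factors, RPN1 too was lower in Mcpip1 WT replicate 3 than in Mcpip1 DN replicate 1, so its groups overlapped. Of 29 genes of ER-associated degradation, 2 passed upward, EDEM2 and UFD1, and 0 downward (median 0.16). Of 50 genes of ER to Golgi transport, 0 passed upward and 1 downward, mia3 (median 0.07). Of 25 regulators of the unfolded protein and integrated stress responses, 0 passed upward and 2 downward, TRIB3 and DDIT4 (median -0.12). TRIB3, a pseudokinase that is a target of the stress factor ATF4, had 61.4, 64.9 and 69.2 CPM in Mcpip1 WT and 121, 102 and 102 CPM in Mcpip1 DN.

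Of 34 cytosolic heat shock genes tested, 3 passed upward, hsp70.1, hsp70.3 and hsp70l, and 0 downward. None of them was among the 100, since the score takes the lowest Mcpip1 WT library, which was replicate 2 in each. hsp70.3 had 92.1, 7.54 and 129 CPM in Mcpip1 WT and 1.70, 6.18 and 8.22 CPM in Mcpip1 DN, so Mcpip1 WT replicate 2 fell within the range of Mcpip1 DN. Near-identical hsp70 copies can share reads.

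Further lists were drawn up after the 100 genes were known. The list of eIF2 and its exchange factors held 10 genes, among them eif5b, which acts after eIF2 has left. Of these, 3 were among the 100 (EIF2S1, EIF2S2 and eif5b), and the 1 that passed, EIF2S1 (ENSDARG00000052178), was one of them. The 7 others all had a log2 fold change above 0 (median 0.26), 0 passed, and 0 had separate groups. EIF5 was at 631, 463 and 409 CPM in Mcpip1 WT and 554, 516 and 434 CPM in Mcpip1 DN. Of 19 ATP synthase genes, 3 passed upward, of which atp5meb and ATP5MG were among the 100. Of the 17 others, 14 were above 0 (median 0.21) and 1 passed, atp5mc1. Of 9 oligosaccharyltransferase genes, the only one to pass was RPN2, and the 8 others had a median of 0.20. Those 8 summed to 1068 to 1223 CPM in Mcpip1 WT and 898 to 986 CPM in Mcpip1 DN, with no overlap. Of 19 genes of cytochrome c oxidase assembly 0 passed, and the 17 outside the 100 had a median of 0.16. Without the genes among the 100, the summed level of the eIF2 list was 1077 to 1223 CPM in Mcpip1 WT and 1005 to 1109 CPM in Mcpip1 DN, with overlap. That of ATP synthase was 2278 to 2493 CPM in Mcpip1 WT and 1932 to 2151 CPM in Mcpip1 DN, with no overlap. All these sums are scaled by total gene counts. The TMM factors were 1.17 for Mcpip1 WT replicate 3 and 0.91 for Mcpip1 DN replicate 1, so a separation of sums depends on the scaling. Divided by these factors, the oligosaccharyltransferase and ATP synthase sums were lower in Mcpip1 WT replicate 3 than in Mcpip1 DN replicate 1, so the groups overlapped.

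**Figure D5:**
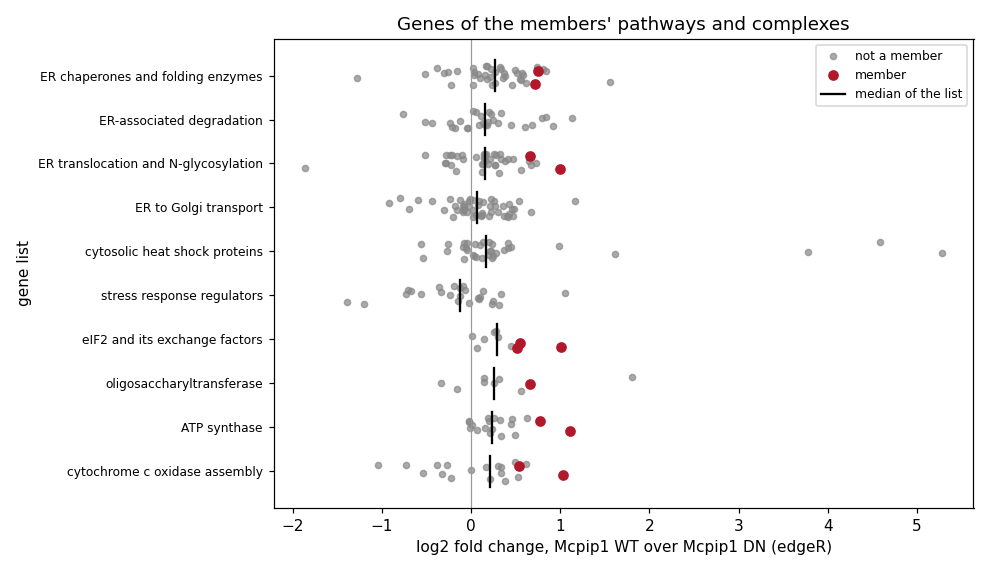
edgeR log2 fold change of Mcpip1 WT over Mcpip1 DN for the genes of 10 pathway lists, with the genes among the 100 in red, others in grey and the median of each whole list as a black bar; vertical scatter has no meaning. Medians lie between -0.12 (stress response regulators) and 0.29 (eIF2), and the hsp70 genes at the far right are not among the 100.

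Markers of other parts of the embryo were read beside these genes, and their part in the result was not tested. None of the 100 was in a marker list. Enveloping layer markers summed to 9260 to 12835 CPM in Mcpip1 WT and 11765 to 15085 CPM in Mcpip1 DN, and 0 of 19 passed in either direction. Yolk syncytial layer markers summed to 1439 to 2449 CPM in Mcpip1 WT and 1621 to 2500 CPM in Mcpip1 DN, with 0 of 15 passing. Germ cell markers summed to 1941 to 3872 CPM in Mcpip1 WT and 1868 to 2693 CPM in Mcpip1 DN, with 0 of 13 passing. Maternal egg transcripts summed to 5904 to 10218 CPM in Mcpip1 WT and 5735 to 7754 CPM in Mcpip1 DN, with 1 of 28 passing, ZAR1L, which was higher in Mcpip1 WT. Endoderm and forerunner markers summed to 598 to 1168 CPM in Mcpip1 WT and 705 to 1236 CPM in Mcpip1 DN, with 0 of 9 passing. The p53 and apoptosis genes summed to 1393 to 1479 CPM in Mcpip1 WT and 1606 to 1908 CPM in Mcpip1 DN, the only list of this paragraph whose sums did not overlap. This separation is in CPM from total gene counts and depends on that scaling. The TMM factors were 0.88 for Mcpip1 WT replicate 2 and 1.11 for Mcpip1 DN replicate 3. Divided by these factors, the sum was higher in Mcpip1 WT replicate 2 than in Mcpip1 DN replicate 3, so the groups overlapped. Of the p53 and apoptosis genes, 1 of 24 passed, APAF1, which was lower in Mcpip1 WT. Every Mcpip1 WT library was below every Mcpip1 DN library for 6 of 21 eligible ones, against 4.24% of all eligible genes. The reverse held for 1 of the 21, against 4.10%. Both counts are in CPM from total gene counts and were not made under TMM.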

How the data were processed

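The authors mapped Ion Proton reads with STAR 2.7.10a, and unmapped reads with bowtie2 2.4.4, to GRCz11, and deposited raw counts per Ensembl gene from htseq-count (version and strand setting not given in the sources used here), so overlapping, antisense and near-identical genes are uncertain. Between 16.5% and 26.1% of counts named no gene and were left out. CPM was computed here from total gene counts. Counts were tested with edgeR 4.0.16 (TMM, filterByExpr with minimum count 10, quasi-likelihood F test, no covariates, R 4.3.3) and, as an alternative, DESeq2 1.42.0. Only the edgeR fit was also run on simulated counts. Groups and replicate numbers came from the labels. Whether replicates were separate clutches is not given, so p-values measure only the spread between these libraries.

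The 100 genes and the gene lists were chosen with earlier results of these data known. Named by rule were the 15 highest scores, members of the fixed lists, the 5 highest in CPM, the 5 widest and 5 narrowest ratios within Mcpip1 WT, 3 genes on either side of the cut and neighbouring members. Symbols came from a name table, and RefSeq (GRCz12tu) gave gene order only. Promoter and protein sequences were not analysed here. Alternatives changed the scaling, test, filter, pseudocount, minimum count, replicate block and libraries; the order and separation of libraries under other scalings were added after seeing the data. Same-numbered libraries did not deviate together for replicates 1 and 2 (r 0.006 and -0.083). For replicate 3 r was 0.301, the highest of all pairings, beside 0.291 for Mcpip1 WT replicate 2 with Mcpip1 DN replicate 1. The numbers were not used as pairs in the main fit. The values of 1 of the 100 genes are not reported here.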

Additional observations from a re-analysis of the deposited data

How the results depend on the processing

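No named gene reversed its direction in 418 values under alternatives (38 genes), of which 347 stayed on their side of the threshold, 57 lost the call and 14 gained it. In each of the 38 genes every Mcpip1 WT library exceeded every Mcpip1 DN library in CPM. The lack of reversals therefore follows from the choice, and nothing is read from it. Of the 100 genes, 45 passed the unadjusted threshold with the replicate block as without it, and 11 to 52 passed with 1 library left out. Among all genes tested, with 141 higher and 204 lower, a filter of at least 1 count gave 336 and 432, and leaving out 1 library gave 69 to 291 and 75 to 512. The membership was 59 with a minimum count of 200, 45 with TMM, 38 with DESeq2 size factors, 27 by mean difference and 16 to 59 with 1 library left out. For the lists, passing genes were counted higher and lower together. Leaving out 1 library moved this count to 0 to 10 for ER chaperones, 0 to 3 for ER-associated degradation and 1 to 8 for translocation and N-glycosylation. It moved to 0 to 3 for ER to Golgi transport, 0 to 3 for stress regulators and 1 to 4 for p53 genes (DESeq2 2, replicate block 3). In the main fit the calls of these last lists were all lower in Mcpip1 WT. For cell type markers and maternal transcripts the count moved to 0 to 6 (replicate block 2). The median log2 fold change of the 100 genes was 0.78 to 0.95 with 1 library left out. The held-out mean was 43.7 to 50.4 under the other settings. With 3 libraries a group and 45 of the 100 genes under 10 CPM, counting error limits the low genes.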
